A study of Mus musculus with 12 samples.

Results

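The mouse mitochondrial genome encodes 13 subunits of the oxidative phosphorylation complexes, and the transcripts of 10 of them, ND1, ND2, ND3, ND4, ND4L, ND5, ND6, CYTB, COX1 and ATP6, are described here across 12 teratoma libraries. They are listed by symbol, as capital-letter rows of the deposited gene lists, and are 10 of the 38986 genes listed. The choice was made with earlier results of these data known. COX2, COX3 and ATP8, whose rows are also in capital letters, are not among the 10 and are set beside them. A teratoma is a tumor of mixed tissues that pluripotent cells form in a host. R1 mouse embryonic stem (ES) cells were transduced with a pEZ-LV235 lentiviral vector with a CAG promoter and selected with puromycin, and the paper describes no cloning step. They were grown under the skin of 8-week-old male immunodeficient NOD-PrkdcEM1 mice. The cells fell into 4 populations, with 3 teratoma libraries each, collected at day 21: the empty vector (ET, the control), wild-type Dnmt3L (WT), and the acetylation-deficient mutants K238R and K412R, in which arginine replaces a lysine. All groups therefore carry the vector, and the stroma and blood of the host are also mouse, so host mitochondrial RNA counts together with that of the tumor. The labels do not tie a library to a mouse, and p-values measure the spread between these libraries.

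The respiratory chain passes electrons from NADH and succinate to oxygen and pumps protons across the inner mitochondrial membrane, and ATP synthase uses the gradient to make ATP. Most subunits are encoded in the nucleus and imported, while a hydrophobic core is made on mitochondrial ribosomes from the mitochondrial genome. ND1, ND2, ND3, ND4, ND4L, ND5 and ND6 are core membrane subunits of complex I, CYTB is the cytochrome b of complex III, COX1 is the catalytic subunit of complex IV and ATP6 belongs to the proton channel of ATP synthase. Both strands of the genome are transcribed as long precursors, which are cut into rRNAs, mRNAs and tRNAs, so many mRNAs start from the same transcription event and differ afterwards by processing and stability. Among these genes ND6 alone is encoded on the opposite strand.

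Some of these genes share bases, so that a read there cannot be given to a single gene. The junctions are printed because the levels of the neighbours are compared below. Sequences come from the GENCODE M21 transcript set, an annotation of GRCm38, and capitals mark the bases that both genes hold. ATP8, a further ATP synthase subunit that is not among the 10 genes, is included for its overlap with ATP6.
ATP8 into ATP6: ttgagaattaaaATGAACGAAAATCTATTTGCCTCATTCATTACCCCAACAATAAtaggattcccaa
ND4L into ND4: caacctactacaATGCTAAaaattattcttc
ND5 against ND6: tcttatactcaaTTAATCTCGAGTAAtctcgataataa
ATP8 and ATP6 shared 43 bases on the same strand, which is 21.1% of ATP8 and 6.31% of ATP6. ND4L and ND4 shared 7 bases, from the start codon of ND4 to the stop codon of ND4L. ND5 and ND6 met tail to tail and shared 14 bases on opposite strands, 2.7% of ND6.

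The ends of the coding sequences also differed. Of the 10 genes, 8 ended in a complete stop codon, and ND4 and CYTB ended in a single T, to which the poly(A) tail adds the rest of the codon. The last bases of these genes, and of ND5 for comparison, are shown with the stop in capitals.
ND4: ctaattacaggcctgacaataT
CYTB: aaaatactaaaattatatccaT
ND5: tactcaattaatctcgagTAA
Base composition separated ND6 from the others. In the coding strand of the other 9 genes cytosine made up between 22.1% (ND3) and 30.0% (ND4L) and guanine between 8.0% (ND2) and 16.1% (COX1), while ND6 held 5.97% cytosine and 28.1% guanine. The nuclear genome also holds copies of this sequence. Of the 10 genes, 9 shared at least 5% of their 31-base words with an annotated nuclear pseudogene, and 3 shared over 90%: ATP6 with Gm10925 (99.5%), ND4L with Gm10222 (98.9%) and ND3 with Gm28438 (98.1%). COX1 shared 45.2% of its words with Gm13340 and ND4 shared 62.8% with Gm28439, while ND1 had no such copy. None of these pseudogenes had a row in the files, so any read from them cannot be told apart from the mitochondrial transcripts.

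Library totals ranged from 16957677 to 18546100 counts. Members together took between 568072 and 838735 counts of a library, and single genes had between 5588 and 251386 counts, except for ND6 with 673 to 1163. Counts were scaled to CPM, the count divided by the library total and multiplied by 1000000. Dnmt3l, the gene on the constructs, had 39, 11 and 137 counts in ET, 2941, 3643 and 3581 in WT, and 699, 677 and 463 in K412R. In the K238R libraries it had 35, 20 and 10 counts, a level like that of ET, so they are named by their label, as the K238R-labelled libraries. The RNA Gm26917 alone accounted for 7.47% to 13.9% of each library, and shares are therefore also given without it in the closing section.

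The 10 transcripts together were a small part of every library total. By group mean this part was highest in WT and lowest in the K238R-labelled libraries, without overlap between these groups. The summed share of the 10 was 4.44%, 3.80% and 3.93% of the library total in the ET libraries, and 4.36%, 4.32% and 4.78% in the WT libraries. It was 4.01%, 3.16% and 3.90% in the K238R-labelled libraries and 3.57%, 3.97% and 4.49% in K412R. WT replicate 3 was the highest and K238R-labelled replicate 2 the lowest, 1.52 times apart, and the highest ET and K412R libraries stood inside the range of WT. The mean of ET was 4.06% ± 0.334 (SD, n = 3), that of WT 4.49% ± 0.257, that of the K238R-labelled libraries 3.69% ± 0.465 and that of K412R 4.01% ± 0.457. Every library labelled K238R lay below every WT library, with a ratio of the mean shares of 0.822, and all other pairs of groups overlapped. Counting error was small beside these spreads, since the widest 95% Wilson interval of a library's share was 0.00999 percentage points to either side, which covers counting error only. In bulk tissue a lower share can come, among other sources, from fewer cells of a mitochondria-rich type or from less mitochondrial RNA per cell, and these cannot be told apart.

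**Figure D1:**
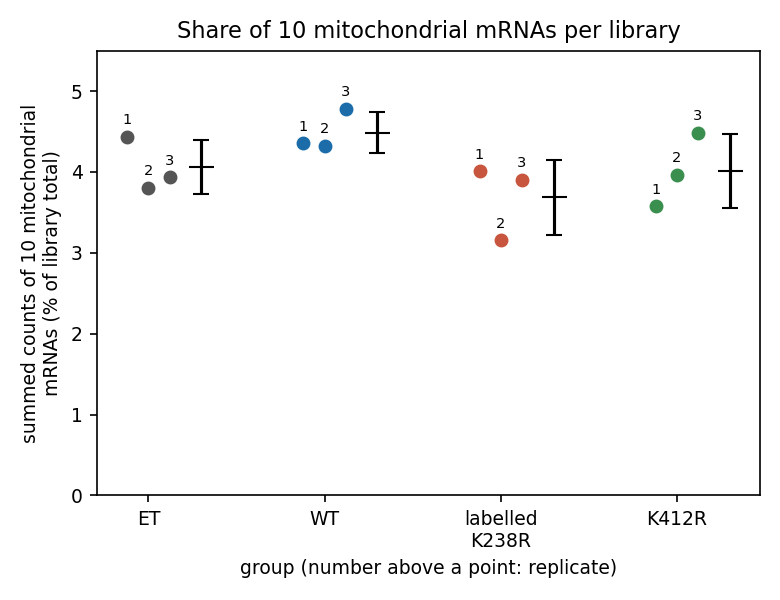
Summed counts of the 10 mitochondrial mRNAs as a percent of the library total (vertical axis, from 0) for the 3 libraries of each group, with the group mean and SD as the bar beside them. The 3 libraries labelled K238R lie between 3.16% and 4.01% and the 3 WT libraries between 4.32% and 4.78%.

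Levels of single genes were compared per kilobase of gene, because a longer gene yields more fragments. ATP6 was the most abundant of the 10, at a mean of 9046 CPM per kb over the 12 libraries, and COX1 followed at 7941 CPM per kb. ATP6 was the higher of these in 12 of 12 libraries, by 1.14 times on the means. CYTB stood at 5185 and ND1 at 4910 CPM per kb, and CYTB was higher than ND1 in 11 of 12 libraries. Next came ND4L at 3283 and ND4 at 3199 CPM per kb, and this order was not stable, since ND4L was the higher in 7 of 12 libraries. ND2 at 2191, ND5 at 1898 and ND3 at 1094 CPM per kb formed the lower end of the range, each below its upper neighbour in 12 of 12 libraries. ND6 stood apart at 101 CPM per kb, 10.8 times below ND3. It was also the one gene whose range over the libraries, 76.5 to 126 CPM per kb, did not meet the range of its neighbour, 895 to 1344 CPM per kb for ND3. The complex I mRNAs thus covered the range from 101 to 4910 CPM per kb among themselves, although their proteins enter the complex in equal number.

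**Figure D2:**
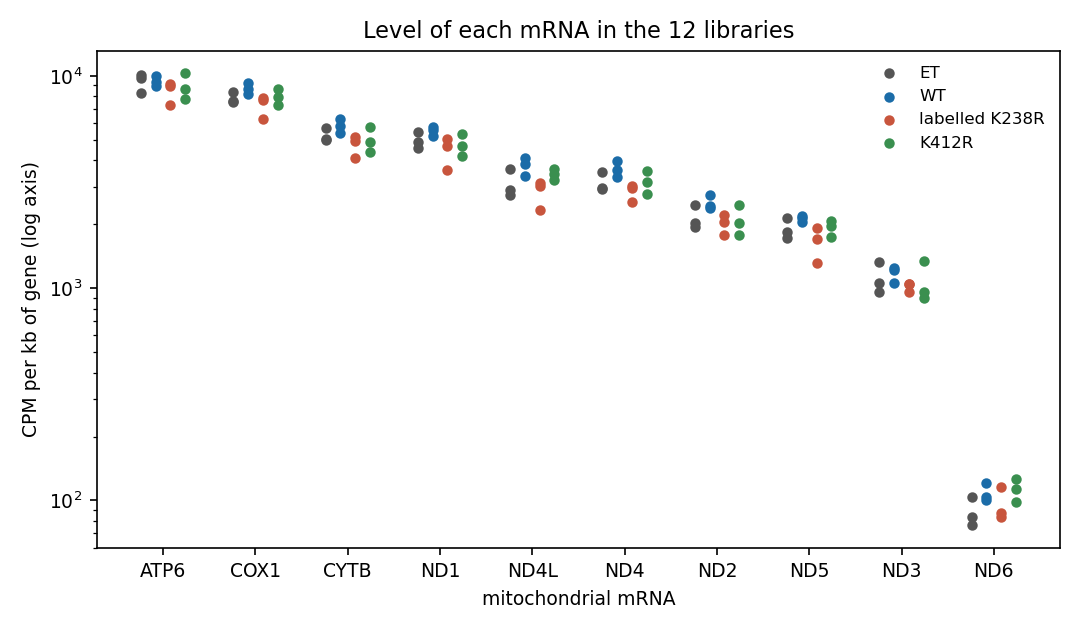
Level of each mRNA in CPM per kb of gene (log axis) in the 12 libraries, with 1 point per library and a color per group. ND6 lies between 76.5 and 126 CPM per kb in all groups and the other 9 genes lie at 895 CPM per kb or more, with the points of the 4 groups mixed.

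Neighbours that share a transcript had near equal levels per base. The level of ND4L over that of ND4, per kb, had a median of 1.02 over the 12 libraries and ranged from 0.915 in K238R-labelled replicate 2 to 1.15 in K412R replicate 1. For ATP8 over ATP6 the median was 0.987, with a range from 0.798 to 1.03. The pair that meets on opposite strands differed far more, as ND6 over ND5 had a median of 0.0504. The part of the summed counts that a gene took was steadiest, among the 10, for COX1, CYTB and ND1. COX1 made up between 29.2% and 31.4% of the sum in every library, CYTB between 14.0% and 15.3% and ND1 between 11.0% and 12.2%. Other genes varied more, such as ND4L, from 2.08% to 2.71% (1.30 times apart), and ND3, from 0.841% to 1.05% (1.25 times apart). ND6 varied most, since its part ranged from 0.104% in ET replicate 2 to 0.191% in K238R-labelled replicate 2, 1.83 times apart.

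The complex I genes ND1 and ND2 varied together over the 12 libraries (Pearson's r of log2 CPM 0.931), while ND6 did not follow the others, as given below. ND1 had 5206, 4373 and 4651 CPM in ET and 5324, 5006 and 5483 in WT, beside 4834, 3457 and 4484 in the K238R-labelled libraries, and 3994, 4492 and 5080 in K412R. WT libraries were the most even, with a coefficient of variation of 4.61% for ND1, and the K238R-labelled libraries the least, with 16.8%. ND2 had 2543, 2011 and 2114 CPM in ET and 2535, 2469 and 2845 in WT, beside 2298, 1856 and 2125 in the K238R-labelled libraries, and 1852, 2102 and 2547 in K412R. All WT values of ND1 and ND2 lay above all values of the K238R-labelled libraries, and K412R replicate 3 lay within the WT range in both genes.

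ND4, ND4L and ND5, which lie close together on the mitochondrial chromosome and encode subunits of the membrane arm of complex I, had the same order of groups. ND4 had 4840, 4075 and 4051 CPM in ET and 4587, 4974 and 5489 in WT, beside 4186, 3514 and 4086 in the K238R-labelled libraries, and 3843, 4334 and 4916 in K412R. ND4L had 1079, 859 and 818 CPM in ET and 1000, 1140 and 1224 in WT, beside 902, 693 and 933 in the K238R-labelled libraries, and 955, 1076 and 1023 in K412R. ND5 had 3890, 3361 and 3148 CPM in ET and 3756, 3883 and 3976 in WT, beside 3494, 2392 and 3114 in the K238R-labelled libraries, and 3193, 3583 and 3758 in K412R. For each of the 3 genes the WT libraries lay above the K238R-labelled libraries without overlap, and ET overlapped both. ND4L was the single gene in which all K412R libraries also lay above all libraries labelled K238R. ND3, another membrane subunit, ranged from 311 to 468 CPM, and both ends of its range came from K412R, in replicates 1 and 3.

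The subunits of the later complexes were highest in WT by group mean. CYTB had 6471, 5673 and 5758 CPM in ET and 6119, 6602 and 7176 in WT, beside 5893, 4705 and 5632 in the K238R-labelled libraries, and 5011, 5586 and 6547 in K412R. COX1, the most heavily counted of the 10, had 12967, 11669 and 11737 CPM in ET and 13394, 12648 and 14341 in WT, beside 11823, 9620 and 12128 in the K238R-labelled libraries, and 11209, 12236 and 13456 in K412R. ATP6 had 6857, 5640 and 6655 CPM in ET and 6385, 6066 and 6827 in WT, beside 6254, 4934 and 6106 in the K238R-labelled libraries, and 5316, 5891 and 6992 in K412R. CYTB and COX1 were again higher in every WT library than in any library labelled K238R, while ATP6 overlapped between these groups and had its highest value in K412R replicate 3. Replicate 2 of the K238R-labelled libraries was the lowest of the 12 libraries for CYTB, COX1 and ATP6.

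ND6, the light-strand gene, did not follow the other 9. It had 54.1, 39.7 and 43.6 CPM in ET and 54.2, 62.7 and 52.1 in WT, beside 43.2, 60.3 and 45.1 in the K238R-labelled libraries, and 59.1, 51.1 and 65.3 in K412R. Replicate 2 of the K238R-labelled libraries was thus among the higher libraries for ND6 and the lowest for the sum of the others. Over the 12 libraries the correlation of a gene's log2 CPM with that of the other 9 genes together lay between 0.812 for ND3 and 0.972 for ND1 in Pearson's r, with Spearman's rho between 0.769 (ND4L) and 0.965 (ND1 and ND2), for all genes but ND6. For ND6 Pearson's r was 0.0922 and Spearman's rho 0.231. Without the libraries farthest from the median of the sum, WT replicate 3 and K238R-labelled replicate 2, r was 0.488 for ND6, and it lay between 0.565 (ND4L) and 0.980 (ND2) for the others. These correlations are descriptions, because all genes of a library share its total.

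The comparison of WT with ET asks what wild-type Dnmt3L did to the teratoma. All 10 transcripts had estimates above 0 in WT, but the differences were small and none passed the test. The log2 fold change ranged from 0.04 for ATP6 to 0.33 for ND6, with a median of 0.19 beside -0.01 over all genes tested, and standard errors (SE) of 0.11 to 0.15. The lowest adjusted p among them was 0.158 for ND4L (log2 fold change 0.32, SE 0.14) in the quasi-likelihood test of edgeR, adjusted by Benjamini-Hochberg over 18405 genes. In that test 0 of the 10 were called, against 0.0489% of all genes, and DESeq2 also called 0, against 11.5%. The edgeR share depended on 1 ET library, since without ET replicate 2 it called 5820 of 18775 genes and still 0 of the 10. The paper reports an outlier in its control group without giving a replicate number in its text. With all 12 libraries, the count at an unadjusted p under 0.05 was 1 of 10, ND4L, against 29.1% of all genes. No gene had groups that did not overlap, where 9.17% of 16417 genes with a mean of at least 1 CPM were higher in every WT library. The 95% intervals reached from 0.848 to 1.58 times the ET level over the 10 genes, so a rise of up to that size in one of them was within the error. Beside this, erythroid markers ranged from 937 to 1196 CPM in WT and from 429 to 781 CPM in ET, fat cell markers (7 genes, with single markers at 0 in some libraries of both groups) from 9.01 to 52.2 and from 3.56 to 8.90 CPM, and pluripotent cell markers (6 genes) from 7.02 to 54.0 and from 57.2 to 125 CPM. Replication histone genes ranged from 205 to 303 CPM in WT and from 337 to 518 CPM in ET. Their part in the values of the 10 genes was not tested.

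Between the K238R-labelled libraries and WT the median difference was the largest of the 6 comparisons. All 10 estimates were below 0 in the K238R-labelled libraries, from -0.20 for ATP6 to -0.46 for ND4L on the log2 scale, with a median of -0.35 where the median of all genes was 0.00078. In levels, this was 0.726 to 0.868 times WT. edgeR called 0 of the 10, against 0.174% of all genes (0.0598% lower), with adjusted p between 0.146 and 0.438. The lowest values were those of ND4 (log2 fold change -0.40, SE 0.12, adjusted p = 0.146) and ND4L (log2 fold change -0.46, SE 0.14, adjusted p = 0.146). At an unadjusted p under 0.05, 7 of 10 were lower, all but ND3, ND6 and ATP6, against 9.64% of all genes. In 8 of 10, all but ND6 and ATP6, every library labelled K238R lay below every WT library, against 11.1% of genes. Since 9 of the 10 vary together, these counts are not independent observations.

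DESeq2 put 3 of these genes past the threshold, against 4.1% of genes called by that tool (2.38% lower). They were ND4 (log2 fold change -0.40, SE 0.12, adjusted p = 0.0349), ND4L (-0.46, SE 0.15, adjusted p = 0.0459) and ND5 (-0.42, SE 0.13, adjusted p = 0.0499). The estimates of both tools were nearly equal. Single libraries moved the count at an unadjusted p under 0.05 in edgeR from 7 to 3 without WT replicate 3 and to 4 without K238R-labelled replicate 2, while all 10 estimates remained below 0 in each of these fits, with a median log2 fold change of -0.27 in both.

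Of the cell type markers, 3 lists moved with this comparison without overlap between the groups. Summed erythroid markers (8 of 8 genes listed) ranged from 937 to 1196 CPM in WT and from 303 to 810 CPM in the K238R-labelled libraries, with Hbb-y at 0 in WT replicate 1 and K238R-labelled replicate 2. Keratinocyte markers (7 genes) ranged from 226 to 310 CPM in WT and from 84 to 195 CPM in the K238R-labelled libraries, and multiciliated cell markers (8 genes) from 377 to 418 and from 269 to 332 CPM. No marker of the latter lists was at 0. Replication histone genes were higher, without overlap, from 307 to 436 CPM in the K238R-labelled libraries and from 205 to 303 CPM in WT. The part of these tissues in the lower mitochondrial share was not tested. Striated muscle, a tissue rich in mitochondria, was uneven within WT, since its 17 markers summed to 670, 5126 and 3324 CPM in the 3 WT libraries and to 1044, 1468 and 96.5 CPM in the K238R-labelled libraries, with Myl7 at 0 in replicate 3 of the latter. The muscle marker sums overlapped between these groups.

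K412R lay between these groups. Against WT, 9 of 10 estimates were below 0, from -0.30 for ND2 to 0.03 for ND6 on the log2 scale, with a median of -0.17 beside 0.01 over all genes. edgeR called 0 of the 10, against 2.02% of all genes, and DESeq2 also called 0, against 9.1%. ND2, at 2166.7 ± 352 CPM (SD, n = 3) in K412R and 2616 ± 201 in WT, was the one gene with an unadjusted p under 0.05 (log2 fold change -0.30, SE 0.13, adjusted p = 0.201), against 22.8% of all genes. No gene had groups that did not overlap, where 17.0% of genes were lower in every K412R library. The 95% intervals reached down to 0.669 times the WT level. Neuron markers (8 of 8 listed, none at 0) ranged from 1992 to 2386 CPM in K412R and from 2639 to 3608 CPM in WT, erythroid markers from 241 to 734 and from 937 to 1196 CPM, with Hbb-y at 0 in 2 of the K412R libraries and WT replicate 1, and striated muscle markers from 460 to 538 and from 670 to 5126 CPM. Malat1 and Neat1, nuclear long noncoding RNAs, summed to between 6490 and 8076 CPM in K412R and between 5226 and 5749 CPM in WT, and replication histone genes to between 322 and 401 and between 205 and 303 CPM. Their part was not tested here either.

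In the other comparisons edgeR and DESeq2 called none of the 10 genes. Between the K238R-labelled libraries and ET, 9 of 10 estimates were below 0, with a median log2 fold change of -0.15 beside -0.02 over all genes, and ND6 was above at 0.10. edgeR called 0 of the 10, where it called 0.0% of all genes, and the lowest adjusted p was 0.805. At an unadjusted p under 0.05 the count was 0 of 10 against 5.58% of all genes, and DESeq2 called 0, against 0.029%. K412R was nearly level with ET, with 5 of 10 estimates above 0 and a median of -0.0067 beside -0.02. Here too 0 were called by edgeR, where it called 0.0% of all genes, and 0 by DESeq2, against 0.473%, and ND6 alone had an unadjusted p under 0.05 (log2 fold change 0.36, SE 0.15, adjusted p = 0.614), against 7.86% of all genes. Between K412R and the K238R-labelled libraries all 10 estimates were above 0, from 0.07 for ND2 to 0.30 for ND4L, with a median of 0.14 beside -0.01. edgeR called 0 of the 10 against 0.0217% of all genes, with 0 at an unadjusted p under 0.05 against 11.9%, and DESeq2 called 0, against 2.0%. ND4L was the 1 gene of 10 higher in every K412R library, against 8.8% of genes, at an adjusted p of 0.424. Without overlap, keratinocyte markers (260 to 427 CPM in K412R, 84 to 195 CPM in the K238R-labelled libraries), multiciliated cell markers (340 to 473 and 269 to 332 CPM) and macrophage markers (312 to 323 and 217 to 299 CPM) were higher in K412R, and neuron markers (1992 to 2386 and 2785 to 3362 CPM) lower. Pluripotent cell markers were below those of ET in K412R (38.5 to 48.9 CPM) and in the K238R-labelled libraries (28.8 to 56.6 CPM), and Malat1 with Neat1 was above ET (5115 to 6029 CPM) in K412R. The part of these in the values was not tested. These comparisons share groups, so their values are not independent of each other.

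**Figure D3:**
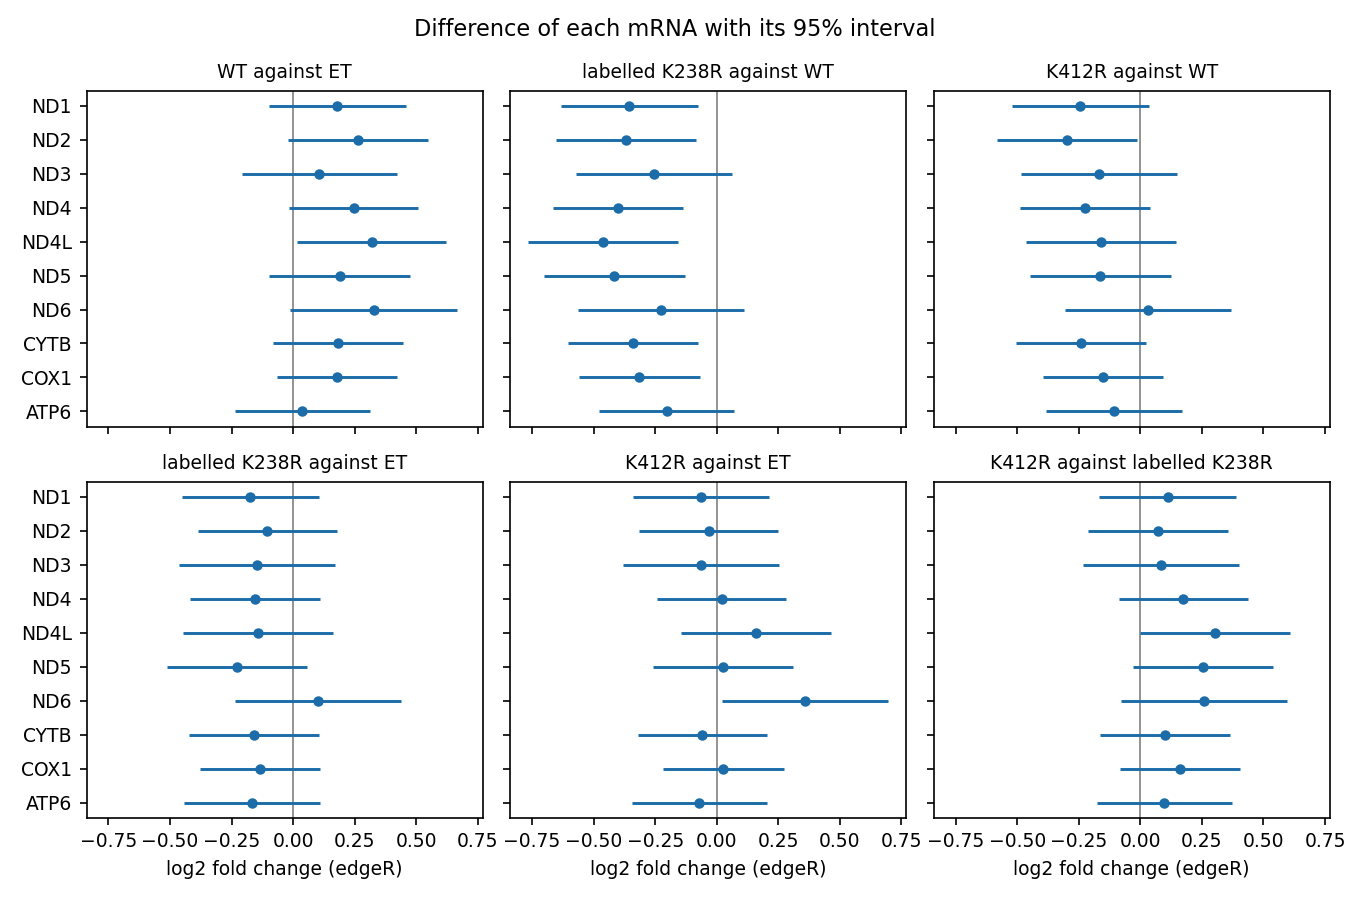
Log2 fold change of each of the 10 mRNAs (points) with its unadjusted 95% interval (lines) from edgeR in the 6 comparisons, where the vertical line marks no difference. All 10 points lie to the left of 0 for the K238R-labelled libraries against WT, between -0.46 and -0.20, and the intervals of 7 genes stay below 0 there.

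Other products of the mitochondrial genome were set beside the 10 mRNAs. COX2 and COX3, subunits of complex IV, and ATP8 had estimates of the same sign. In the K238R-labelled libraries against WT the log2 fold change was -0.26 (SE 0.09, adjusted p = 0.196) for COX2, -0.21 (SE 0.11, adjusted p = 0.329) for COX3 and -0.30 (SE 0.17, adjusted p = 0.357) for ATP8. All 13 mRNAs together took between 4.22% and 6.23% of a library. Of the rRNAs of the mitochondrial ribosome, mt-Rnr2, the large rRNA, had 7267, 7258 and 5654 CPM in ET and 11825, 8403 and 14094 in WT, beside 5597, 10028 and 5121 in the K238R-labelled libraries, and 12547, 11072 and 6255 in K412R. Its highest library held 2.75 times its lowest, and the order of libraries was not that of the mRNAs, as K238R-labelled replicate 2 was lowest in mRNA and high in mt-Rnr2. The small rRNA, mt-Rnr1, ranged 1.55-fold, from 4442 to 6907 CPM. Per kb, mt-Rnr2 over mt-Rnr1 ranged from 0.643 to 1.27 between libraries, although both come from the same precursor. Against ET, WT stood 0.80 higher for mt-Rnr2 on the log2 scale (SE 0.32, adjusted p = 0.138) and 0.35 higher for mt-Rnr1 (SE 0.12, adjusted p = 0.121), without passing the test. Both rRNAs were higher in every WT library than in any ET library, as were 9.17% of the 16417 genes with a mean of at least 1 CPM. In the K238R-labelled libraries against WT the log2 fold change in edgeR was -0.42 for mt-Rnr1 (SE 0.12, adjusted p = 0.140) and -0.77 for mt-Rnr2 (SE 0.32, adjusted p = 0.250). These groups did not overlap for mt-Rnr1, where 11.1% of genes were lower in every library labelled K238R, and they overlapped for mt-Rnr2. Poly(A) selection preceded library preparation, and the part of that selection in the levels of rRNA and ND6 was not tested.

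**Figure D4:**
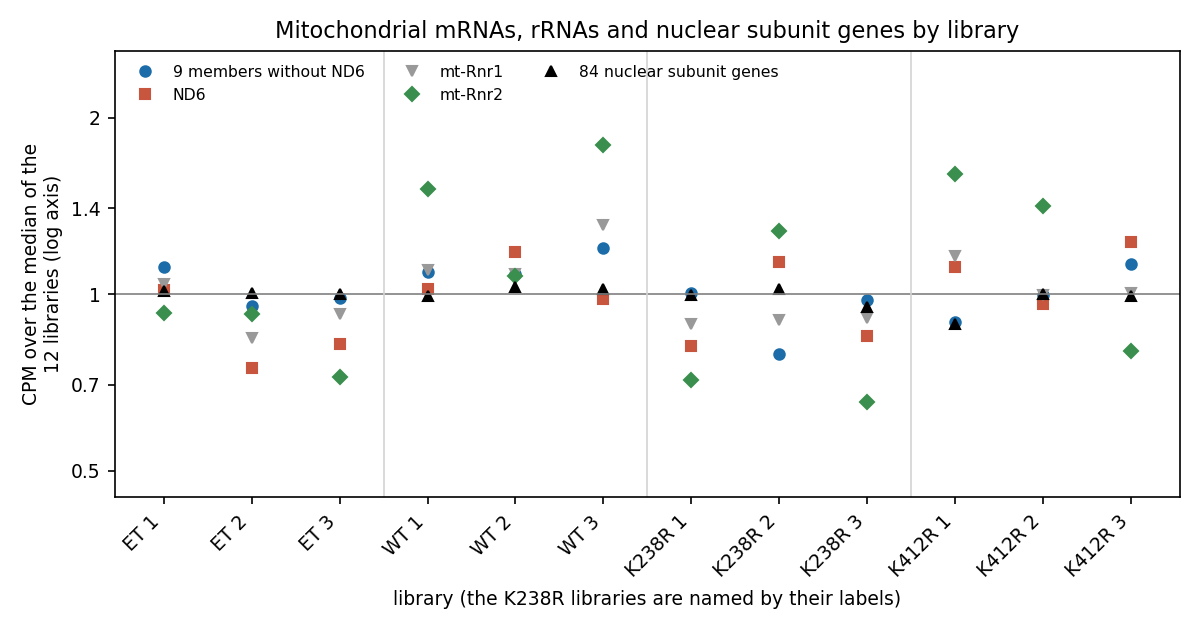
CPM of the summed 9 genes without ND6, of ND6, mt-Rnr1 and mt-Rnr2 and of 84 nuclear subunit genes in each library, divided by the median of the 12 libraries (log axis). The nuclear genes lie between 0.889 (K412R replicate 1) and 1.03, while the 9 mRNAs reach 0.791 in K238R-labelled replicate 2, where ND6 is at 1.14.

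The summed level of the nuclear subunit genes of the same complexes was steadier than that of the mitochondrial ones. A sum over 84 genes can even out differences between single genes, and single nuclear genes were not compared in this way. The 84 genes for nuclear subunits of complexes I to IV and ATP synthase summed to between 5707 and 6594 CPM, 1.16 times apart, beside 1.52 times for the 10 mitochondrial mRNAs. The sum of the 10 was 6.28 ± 0.477 (SD, n = 3) times the nuclear sum in ET and 6.90 ± 0.375 times in WT, beside 5.83 ± 0.870 in the K238R-labelled libraries and 6.49 ± 0.462 in K412R. Per library this ratio ran from 4.83 in K238R-labelled replicate 2 to 7.30 in WT replicate 3. By complex, the 7 ND genes were counted 9.31 times as often as the 37 nuclear genes of complex I in the median WT library and 8.27 times in the median library labelled K238R. For ATP6 against 17 nuclear ATP synthase genes the medians were 2.80 and 2.67.

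In the K238R-labelled libraries against WT neither edgeR nor DESeq2 called any of these nuclear genes, and the summed level of each subunit list overlapped between the groups. Estimates were below 0 for 33 of 37 complex I subunits (median log2 fold change -0.10), 8 of 9 complex III subunits (-0.16), 16 of 17 complex IV subunits (-0.15) and 15 of 17 ATP synthase subunits (-0.07), beside 0.00078 over all genes. Complex II, which holds no mitochondrially encoded subunit, had 3 of 4 below 0 with a median of -0.03. Assembly factors had 24 of 45 below 0. Genes that replicate, transcribe, process and translate mitochondrial nucleic acids, with regulators of mitochondrial content, differed in sign, with 41 of 57 above 0 and a median of 0.13. In WT against ET the mitochondrial mRNAs had estimates above 0, and 48 of these 57 genes had estimates below 0 (median -0.17), with 0 called by edgeR, 5 called by DESeq2, and 16 of the 57 in edgeR at an unadjusted p under 0.05, beside 29.1% of all genes.

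In this last pool the lowest p in WT against ET belonged to Twnk, the mitochondrial DNA helicase, at 12.7 ± 2.49 CPM in WT and 19.3 ± 2.98 CPM in ET (SD, n = 3), a log2 fold change of -0.59 (SE 0.15, adjusted p = 0.103 in edgeR). Its single values were 15.1, 12.9 and 10.1 CPM in WT and 19.4, 16.3 and 22.3 CPM in ET, so the groups did not overlap. Twnk had 18.9, 17.6 and 19.0 CPM in the K238R-labelled libraries and 19.1, 15.6 and 18.5 CPM in K412R, which puts WT below each of the other groups (adjusted p = 0.151 for the K238R-labelled libraries and 0.113 for K412R). Pprc1, a coactivator of nuclear genes for mitochondrial proteins, followed in WT against ET (log2 fold change -0.41, SE 0.12, adjusted p = 0.109). In the K238R-labelled libraries against WT, Fastkd1, of the FASTK family of mitochondrial RNA-binding proteins, had a log2 fold change of -0.31 (SE 0.11, adjusted p = 0.205).

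The test was passed by 2 nuclear genes of the pathway, both in K412R against WT, where 1.33% of all genes were called higher and 0.69% lower. Atp5g2, 1 of the genes for the c subunit of the ATP synthase rotor, was higher in K412R, with 155, 174 and 157 CPM beside 116, 108 and 89.8 CPM in WT (log2 fold change 0.62 ± 0.11 SE, adjusted p = 0.0229). Ndufs1, a core iron-sulfur subunit of complex I, was lower, with 76.2, 67.7 and 75.3 CPM beside 91.0, 105 and 99.7 CPM (log2 fold change -0.45, SE 0.086, adjusted p = 0.0283). Neither group overlapped the other for these genes. Both calls depend on single libraries, as the count of 2 called among 129 subunit and assembly genes became 0 without WT replicate 2, WT replicate 3 or any 1 of the K412R libraries, 1 without ET replicate 1 or K238R-labelled replicate 3, 4 without WT replicate 1 and 6 without ET replicate 2. Over the whole list 91 of 129 estimates were below 0, with a median of -0.07. In WT against ET the same 2 genes had the lowest p of the list in the opposite directions, Atp5g2 at -0.38 (SE 0.11, adjusted p = 0.110) and Ndufs1 at 0.27 (SE 0.086, adjusted p = 0.111), and these comparisons share the WT libraries. Summed nuclear ATP synthase subunits ranged from 2057 to 2266 CPM in K412R, 2279 to 2340 in WT and 2281 to 2423 in ET. Complex II subunits ranged from 307 to 337, 339 to 353 and 338 to 343 CPM. Both sums were lower in every K412R library than in any WT or ET library, and K412R replicate 1 was the lowest in both. The gaps were small, as complex II stood at 336.6 CPM in the highest K412R library and at 338.1 CPM in the lowest ET library. Of single genes with a mean of at least 1 CPM, 17.0% were lower in every K412R library than in any WT library. Against ET this share was 5.79%. Those of complexes I, III and IV and of the assembly factors overlapped.

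In the remaining comparisons edgeR called none of the nuclear genes of these lists, and the calls of DESeq2 are given in the closing section. In the K238R-labelled libraries against WT the lowest p values of the subunit list were those of Atp5md, a small ATP synthase subunit (log2 fold change -0.28, adjusted p = 0.156), and Ndufab1, the mitochondrial acyl carrier protein (-0.23, adjusted p = 0.221). Against ET, the K238R-labelled libraries had Cox7c (-0.26) and Cox17, a copper chaperone of complex IV (-0.24), both at an adjusted p of 0.805, with Mtrf1l, a mitochondrial release factor (-0.29), and Ssbp1, the mitochondrial single-stranded DNA binding protein (-0.28), also at 0.805. K412R against ET had Nubpl, an iron-sulfur assembly factor of complex I (0.49, adjusted p = 0.586), Angel2 (-0.31, adjusted p = 0.426) and Mtrf1l (-0.47, adjusted p = 0.532). K412R against the K238R-labelled libraries had Coa7, an assembly factor of complex IV (-0.42, adjusted p = 0.180), Ndufs1 (-0.31, adjusted p = 0.196), Angel2 (-0.38, adjusted p = 0.144) and Esrrg (-0.55, adjusted p = 0.519). Esrrg, a nuclear receptor that activates genes of mitochondrial metabolism, had a log2 fold change of -0.93 in K412R against WT (SE 0.30, adjusted p = 0.110).

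Cox6a2, a muscle-type subunit of complex IV named after its values were seen, was uneven within WT. It had 3.04, 14.9 and 15.4 CPM in the WT libraries and 0.597 CPM in K238R-labelled replicate 3, where WT replicates 2 and 3 had the highest and the latter library the lowest sum of muscle markers. In WT against ET its log2 fold change was 1.52 (SE 0.82, adjusted p = 0.227), so the spread within groups was too large for a call. Of the muscle-type subunits examined with it, Cox8b had 0.506, 4.29 and 3.77 CPM in the WT libraries. Cox7a1 was more even, at 1.24, 1.12 and 1.65 CPM. Their log2 fold changes in WT against ET were 1.43 (SE 0.95, adjusted p = 0.317 in edgeR) and 0.28 (SE 0.44, adjusted p = 0.689).

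The genes whose log2 CPM followed the summed mitochondrial mRNAs most closely over the 12 libraries were Dusp11 (r = 0.907, and 0.810 without the 2 libraries farthest from the median), Klf6 (0.890 and 0.712), Gmfb (0.849 and 0.612), Zfp354c (0.826 and 0.759) and Plekha1 (0.822 and 0.627). The most opposed were Zfp768 (-0.838 and -0.723), Def8 (-0.831 and -0.604), Med16 (-0.831 and -0.775), Lrrc47 (-0.826 and -0.568) and Supt5 (-0.811 and -0.459). None of the 10 is among the nuclear subunit and assembly genes, whose r had a median of 0.151 over 121 genes and ranged from -0.599 to 0.750. All these values share the library totals and were picked as extremes among 13070 genes.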

How the data were processed

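RNA was measured in 12 teratoma libraries, 3 in each of 4 groups given by the sample titles. The authors selected poly(A) RNA, prepared libraries with the CORALL kit, and used fastp for trimming, STAR for mapping and Salmon for quantification. The submitters' processing notes also name GATK and the GRCm39 build, while the versions of these tools, the annotation release and strand setting are not given in the sources used here. The deposited values are estimated counts per gene in whole numbers, without normalization.

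Shares and CPM were computed from the deposited counts over the library total of all listed genes. Levels per kb used RefSeq gene lengths (assembly GRCm38.p6), and all 10 symbols matched. No coordinates are printed because the builds differ. The main test was edgeR 4.0.16 (R 4.3.3) with TMM factors, filterByExpr and quasi-likelihood F tests on all 12 libraries with 1 mean per group, and Benjamini-Hochberg adjustment over 18405 genes at a threshold of 0.05. All 10 genes passed the filter. The study's methods name DESeq2, run here as version 1.42.0 as an alternative. Other alternatives were RLE size factors, no low-count filter, scaling without the 10 genes and Gm26917, only the 2 groups compared, the replicate number as a block, and leaving out each library. Intervals of fold changes are unadjusted 95% intervals. Nuclear genes were named as those called (up to 3 per list and comparison) or, with none called, the 2 of lowest p, and genes of like pattern by Pearson's r of log2 CPM with a prior count of 2 among genes with a mean of at least 5 CPM, as the 5 highest and 5 lowest. A nuclear gene that this rule names is not reported here. The genes and lists were chosen with earlier results of these data known. The edgeR fit was tested on simulated counts with 200 genes changed 4-fold in WT, of which 97% were called in WT against ET. That setting does not measure the power for differences as small as those of the 10 genes. Total counts of 16957677 to 18546100 per library limit the precision least for COX1 and most for ND6.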

Additional observations from a re-analysis of the deposited data

How the results depend on the processing

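The count of 0 of the 10 genes called held in edgeR under every alternative and with each library left out (0 in all 6 comparisons), and changed only with DESeq2 in the K238R-labelled libraries against WT, to 3. With a library left out, 698 estimates kept their sign and 22, all near 0 and none past the threshold, did not. The log2 fold changes with such a change ranged, over the 12 fits, from -0.039 to 0.081 for ATP6 in WT against ET, from -0.013 to 0.12 for ND6 in K412R against WT and from -0.082 to 0.23 for ND6 in the K238R-labelled libraries against ET. In K412R against ET they ranged from -0.099 to 0.0051 for ND1, -0.10 to 0.066 for ND2, -0.20 to 0.071 for ND3, -0.015 to 0.10 for ND4, -0.027 to 0.11 for ND5, -0.11 to 0.015 for CYTB and -0.13 to 0.0032 for ATP6. In K412R against the K238R-labelled libraries they ranged from -0.0075 to 0.21 for ND1, -0.0098 to 0.16 for ND2 and -0.063 to 0.18 for ND3. Calls over all genes were less stable than those of the 10. Without ET replicate 2, edgeR called 5820 of 18775 genes in WT against ET and 256 in K412R against ET. In the same fit it called 807 in the K238R-labelled libraries against WT and 1540 in K412R against WT.

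The summed share without Gm26917 in the total was 4.47% in ET, 5.01% in WT, 4.06% in the K238R-labelled libraries and 4.51% in K412R. Without COX1 in the sum it was 2.85%, 3.14%, 2.57% and 2.78%. With a library of the group left out it ranged from 3.87% to 4.19% in ET, 4.34% to 4.57% in WT, 3.53% to 3.96% in the K238R-labelled libraries and 3.77% to 4.23% in K412R.

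Nuclear calls were less stable. For 129 subunit and assembly genes, DESeq2 called 3 in WT against ET and 11 in K412R against WT, and the fit to only the 2 groups called 7 in K412R against WT. Leaving out libraries gave 0 to 7 in WT against ET (7 without ET replicate 2) and 0 to 6 in K412R against WT. For the 57 genes of mitochondrial gene expression and content, DESeq2 called 5 in WT against ET, 1 in K412R against WT and 1 in K412R against the K238R-labelled libraries, and leaving out libraries gave 0 to 17 in WT against ET (17 without ET replicate 2 and 6 without WT replicate 1), 0 to 1 in K412R against WT and 0 to 1 in K412R against the K238R-labelled libraries. The cause was not tested. Nothing in the labels ties libraries of the same replicate number to a shared mouse or batch, and over all groups 12 of 18 such pairs had a correlation of deviations over 0.1 (from -0.460 to 0.641, median 0.176). Pairs of different numbers spread as widely. ET replicate 3 had 0.601 with K238R-labelled replicate 1, 0.591 with WT replicate 1 and -0.686 with K238R-labelled replicate 2. All 3 same-number pairs were over 0.1 between ET and the K238R-labelled libraries (0.162 to 0.641) and between the latter and K412R (0.115 to 0.392). In the other comparisons at least 1 same-number pair was not, so whether the numbers pair libraries cannot be settled here. With the replicate block the 10 genes had 0 calls in all comparisons, the subunit list 1 in WT against ET and 8 in K412R against WT, and the gene expression list 1 in WT against ET.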
